A study of Mus musculus with 20 samples.

Results

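The Gadd45 family of the mouse holds 3 genes, Gadd45a, Gadd45b and Gadd45g, and all 3 were found by symbol among the 55421 genes of the liver RNA-seq count table and were among the 22867 genes tested. The family was chosen by a measured value, since Gadd45a was among the genes that differed between the 3-week and 6-month control livers. That comparison is therefore given below as a description, without a test for any family member. The samples were 20 livers of C57BL/6 wildtype mice labelled female (the study's text on this time course calls them male, a figure legend female), injected at 6 months of age with AAV8-Tbg-saCAS9/U6-sgRNA vectors that carried a guide RNA to HIRA or to Rosa26. HIRA is a chaperone that places histone H3.3 in chromatin outside DNA replication, and the Rosa26 locus served as the cut control. Mice were killed for liver RNA at 3 weeks or at 6 months from the injection, with 5 mice in each of the 4 groups. All 4 groups, controls included, carried the AAV8 vector and the S. aureus Cas9 nuclease, which was driven by the hepatocyte-specific Tbg promoter, so that cutting was directed at hepatocytes while the RNA came from the whole liver. In such bulk RNA, fewer cells of a type and less RNA per cell cannot be told apart.

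Gadd45 proteins are small, acidic and mostly nuclear, and have no known enzyme activity. They act by binding other proteins: they switch on the kinase MTK1 (Map3k4) upstream of p38 and JNK, hold back the Cdk1-cyclin B1 kinase, bind PCNA and p21 (Cdkn1a), and take part in removal of methyl groups from DNA together with TET and TDG enzymes. Their genes are known to be induced quickly by stress. Gadd45a is the classic p53 and BRCA1 target of the 3, Gadd45b is a target of NF-kB and TGF-beta signals and of the nuclear receptor CAR in liver, and Gadd45g is known to respond to cytokines.

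On GRCm38 with GENCODE M21, Gadd45a (ENSMUSG00000036390.8) lay on the minus strand at chr6:67035096-67037457, Gadd45b (ENSMUSG00000015312.9) on the plus strand at chr10:80930073-80932204, and Gadd45g (ENSMUSG00000021453.2) on the plus strand at chr13:51846678-51848468. The exons of all annotated transcripts together covered 1764 bases in Gadd45a, 1589 in Gadd45b and 1173 in Gadd45g, and the lowest-numbered transcript of each had 4 exons. The Gadd45a gene overlapped by 859 bases with E230016M11Rik on the opposite strand, which held 641 counts in all libraries against 3548 for Gadd45a, or 18.1%. The library kit was directional but the use of strand in counting was not given in the sources used here, so reads of the pair may not have been kept apart.

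The start regions of the 3 genes are shown because the genes share some promoter letters and differ in others. RefSeq windows on GRCm38.p6 that ran from 250 bases before each start to 50 bases after it were searched on both strands for 5 short motifs, which were chosen after the sequences had been seen. Capitals mark the match in each 26-base stretch, which is written in the direction of the gene. Positions count from the RefSeq start, which for each of the 3 genes lay at another base than the GENCODE start given above. The octamer ATTTGCAT, or ATGCAAAT on the other strand, is the binding site of OCT factors and was present in 1.74% of 32851 windows. It stood at positions -97 and -70 of Gadd45a (chr6:67037488-67037513 and chr6:67037461-67037486) and at -103 of Gadd45g (chr13:51846563-51846588):
Gadd45a octamer, upstream: cgtctgctaATTTGCATaacccaatg
Gadd45a octamer, downstream: cctgactgcATGCAAATgaagctgga
Gadd45g octamer: tgccgcctcATTTGCATcagaaagcg
The letters TATAAA, the TATA box, were present in 13.6% of the windows, and stood at -46 of Gadd45b (chr10:80930035-80930060) and at -27 of Gadd45g (chr13:51846638-51846663):
Gadd45b TATA box: cgggaagtcaTATAAAccgctcgcag
Gadd45g TATA box: cgagcctgtcTATAAAagggctctcc
CACGTG, the E-box read by MYC and by the CLOCK-BMAL1 pair, was present in 7.15% of the windows, at -185 of Gadd45b (chr10:80929896-80929921) and at -142 of Gadd45g (chr13:51846523-51846548):
Gadd45b E-box: ccctgaccccCACGTGgggccgccgg
Gadd45g E-box: cacccctcccCACGTGgccttctggc
CCAAT, the letters read by NF-Y, was present in 37.4% of the windows and in those of all 3 genes, at -86 of Gadd45a, at -139 and -100 of Gadd45b and at -78 of Gadd45g. The octamer was not found in the Gadd45b window, the TATA box and the E-box were not found in that of Gadd45a, and TGACGTCA, the cAMP response element present in 1.79% of the windows, was found in none of the 3. No 2 matches in a family member shared a base. Such matches are letters in a window and were not read as occupied sites.

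Library totals ran from 19916430 to 24079736 counts. Hepatocyte markers such as Alb and Apoa1 summed to between 107000 and 174000 CPM, which are counts scaled to a common library total, in every library, with 110000 to 131000 in Rosa26 livers and 130000 to 159000 in HIRA livers at 6 months. Hira had 87 to 127 counts in HIRA livers against 128 to 171 in Rosa26 livers at 3 weeks, and 109 to 136 against 105 to 157 at 6 months. The fitted log2 differences for Hira were -0.48 ± 0.14 (SE, edgeR quasi-likelihood adjusted p = 0.197) and -0.10 ± 0.14 (adjusted p = 0.794). Reads outside the cut can remain after editing, so the level of Hira RNA is an incomplete check of the labels. HIRA 6-month replicate 5 held 9 Xist counts and 2041 counts of 4 Y-linked genes, against 6286 to 8436 and 0 to 13 in the other 19 libraries, which goes against its label. The fitted differences, levels, mean ratios per kilobase and Pearson r of the family that use it are given with and without it. FPKM ratios, counts of livers and rank correlations are given only with it.

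By group mean, Gadd45g was the highest of the 3 genes and Gadd45a the lowest in the 3-week control livers. In replicate 2 of that group Gadd45a stood above Gadd45b. Per kilobase of exon and in TMM-scaled CPM, Gadd45g stood at 16.5 ± 6.90 CPM (SD, n = 5), Gadd45b at 4.66 ± 1.88 and Gadd45a at 2.52 ± 0.311 in Rosa26 livers at 3 weeks. The spread of Gadd45g and Gadd45b between livers was wide, and that of Gadd45a was narrow. In HIRA livers at 3 weeks the same scale gave 6.15 ± 2.90 for Gadd45g, 3.78 ± 1.63 for Gadd45b and 3.77 ± 0.962 for Gadd45a, so that Gadd45b and Gadd45a were next to each other and did not differ beyond their spread. In Rosa26 livers at 6 months Gadd45a stood at 6.87 ± 2.45 and Gadd45g at 6.48 ± 1.43, again within their spread, with Gadd45b at 1.53 ± 0.249 below both. In HIRA livers at 6 months the values were 6.48 ± 5.10 for Gadd45g, 5.25 ± 2.00 for Gadd45a and 2.53 ± 1.39 for Gadd45b, with overlapping spreads, and 7.29 ± 5.51, 4.55 ± 1.44 and 2.95 ± 1.17 without replicate 5 (n = 4).

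**Figure D1:**
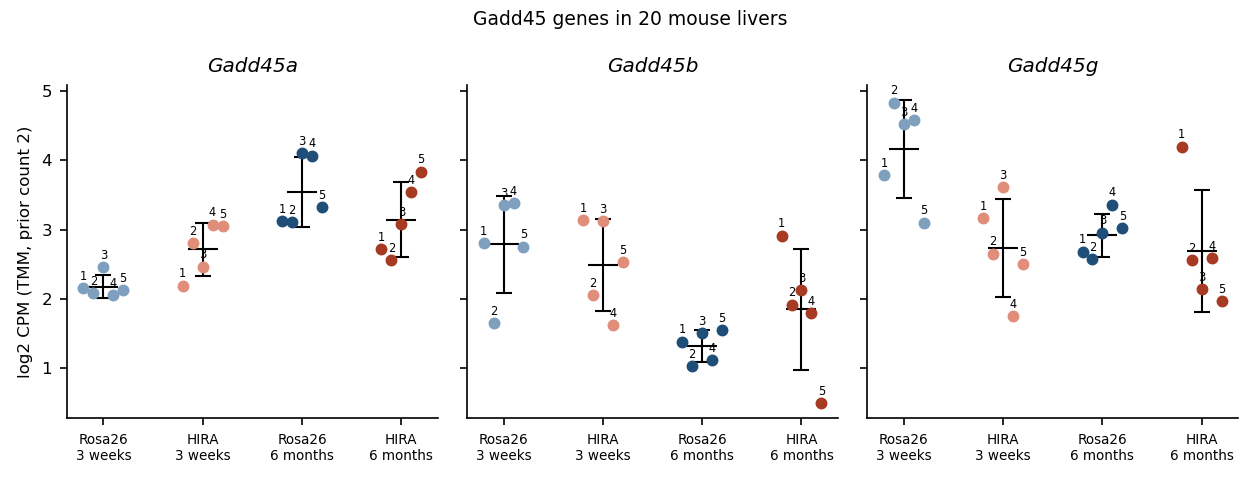
Level of each Gadd45 gene (y axis, log2 CPM with TMM scaling and a prior count of 2) in the 5 livers of each group (x axis); points are libraries with their replicate number, and the cross bar and whiskers are the mean and SD. Gadd45g in Rosa26 livers at 3 weeks has the highest mean, 4.16, and Gadd45b in Rosa26 livers at 6 months the lowest, 1.32.

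Gadd45g, the cytokine-responsive member, gave the most negative log2 difference of the family between guides, at 3 weeks. Its counts in Rosa26 livers at 3 weeks were 270, 567, 494, 526 and 182 in replicates 1 to 5, and in HIRA livers at 3 weeks 192, 132, 251, 75 and 117. Control replicate 5 stood lower than HIRA replicates 1 and 3, so the groups overlapped, while the other 4 controls were above every HIRA liver. On the log2 CPM scale the means were 4.16 ± 0.71 and 2.74 ± 0.70 (SD, n = 5). The fitted log2 difference of -1.43 ± 0.40 (SE) had an unadjusted p of 0.00166 and an edgeR adjusted p of 0.172, and so was not called at an adjusted p under 0.05 with an absolute log2 difference above 1, the thresholds of the study. DESeq2, run on the same counts, called it (log2 difference -1.43, adjusted p = 0.0259). Leaving out each library in turn kept the fitted difference between -1.70 and -1.24, with adjusted p not under 0.0513.

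At 6 months Gadd45g had 148, 126, 178, 219 and 175 counts in Rosa26 livers and 465, 127, 104, 121 and 75 in HIRA livers. HIRA replicate 1 was above every control and replicates 3 and 5 below every control in counts and in CPM, while replicates 2 and 4 were close to the lowest control on either scale (5.78 and 5.92 against 5.87 in TMM-scaled CPM). The fitted guide difference was 0.01 ± 0.40 (edgeR adjusted p = 1.0). It was -0.62 without HIRA replicate 1 (adjusted p = 0.435) and 0.18 without replicate 5 (adjusted p = 0.874), so its sign rested on single libraries. Between 3 weeks and 6 months in HIRA livers, a comparison that shares no library with the control time course, the Gadd45g difference was 0.09 ± 0.40 (adjusted p = 0.970). Without HIRA 6-month replicate 1 it was -0.54 (adjusted p = 0.677), and without replicate 5 it was 0.26 (adjusted p = 0.884).

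Gadd45a, the p53 and BRCA1 target, stood in the opposite direction at 3 weeks. Its counts were 86, 83, 117, 90 and 92 in Rosa26 livers and 97, 147, 112, 190 and 172 in HIRA livers. HIRA replicates 2, 4 and 5 were above every control in counts and in CPM and replicate 1 lay within the control range, while replicate 3 lay within it in counts and just above it in TMM-scaled CPM (5.42 against 5.41). The log2 difference was 0.58 ± 0.25, with an unadjusted p of 0.0329 and an edgeR adjusted p of 0.503, and it was not called. Selection through the control time course favours low Gadd45a in 3-week controls, which alone raises this difference. Its p-values are therefore not free of the selection. At 6 months the counts were 201, 183, 395, 359 and 216 in Rosa26 livers and 166, 127, 201, 235 and 279 in HIRA livers. HIRA replicates 1 and 2 were below every control and replicates 4 and 5 lay within the control range, while replicate 3 lay within it in counts and just below it in TMM-scaled CPM (8.34 against 8.53). The difference was -0.39 ± 0.24 (adjusted p = 0.473), with -0.60 without HIRA replicate 5 (adjusted p = 0.192), -0.24 without Rosa26 replicate 3 and -0.25 without Rosa26 replicate 4. Within HIRA livers the difference between 6 months and 3 weeks was 0.47 ± 0.25 (adjusted p = 0.611), with overlapping groups, and it was 0.27 without replicate 5 of 6 months (adjusted p = 0.763).

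Gadd45b, the NF-kB and TGF-beta target, had 136, 61, 219, 229 and 143 counts in Rosa26 livers at 3 weeks and 188, 87, 178, 68 and 119 in HIRA livers. The HIRA range lay within the control range in counts, and the log2 difference was -0.31 ± 0.35 (edgeR adjusted p = 0.892). With each library left out in turn it ran from -0.50 to -0.13. At 6 months the counts were 59, 42, 64, 45 and 62 in Rosa26 livers and 190, 81, 103, 69 and 26 in HIRA livers. In this case 4 of 5 HIRA livers were above every control and replicate 5 was below every control. The difference of 0.73 ± 0.37 was not called (unadjusted p = 0.0633, adjusted p = 0.353). It was 0.95 without HIRA replicate 5 (adjusted p = 0.147) and 0.37 without HIRA replicate 1 (adjusted p = 0.721). Within HIRA livers the difference between 6 months and 3 weeks was -0.57 ± 0.36 (adjusted p = 0.701), with -0.35 without replicate 5 of 6 months (adjusted p = 0.776) and -0.92 without replicate 1 (adjusted p = 0.399).

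Of the 3 family members, 0 were called by edgeR and 0 had groups without overlap in the guide comparison at 3 weeks, where 0.114% of all tested genes were called and 2.69% had groups without overlap. The same counts held at 6 months, where 0.332% and 3.15% of tested genes did so, and between the time points in HIRA livers, where 0.0569% and 1.47% did. At an unadjusted p under 0.05 there were 2 members at 3 weeks, Gadd45a and Gadd45g, beside 8.87% of all tested genes, 0 at 6 months beside 15.5% and 0 over time in HIRA livers beside 8.95%. DESeq2 called 1 member, Gadd45g, at 3 weeks, where it called 0.445% of the genes it tested, and 0 at 6 months and over time in HIRA livers, where it called 0.882% and 0.458%. The guide comparison of each time point uses 5 of the control libraries through which Gadd45a was selected, and only the time comparison in HIRA livers shares none. That selection favours low 3-week and high 6-month controls, which pushes the Gadd45a guide difference up at 3 weeks and down at 6 months. Its p-values in the guide comparisons, and its place among the 2 members at 3 weeks, are not free of this.

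The control livers gave the comparison through which Gadd45a was selected, and its values are a description. From 3 weeks to 6 months in Rosa26 livers the log2 difference was 1.45 ± 0.25 (SE) for Gadd45a, a fold of 2.72, and every 6-month control was above every 3-week control. Gadd45b and Gadd45g stood the other way, with differences of -1.61 ± 0.37 and -1.35 ± 0.39, or folds of 0.329 and 0.392. For Gadd45b the highest 6-month control, 2.84 CPM, was just under the lowest 3-week control, 3.05 CPM, on the TMM-scaled values, but in unscaled CPM the groups touched (3.00 in Rosa26 6-month replicate 3 against 2.92 in Rosa26 3-week replicate 2). The Gadd45g groups overlapped on both scales. In this comparison 0.162% of all tested genes were called and 3.50% had groups without overlap in TMM-scaled CPM, and nothing is read from the members' share because this comparison chose the family.

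**Figure D2:**
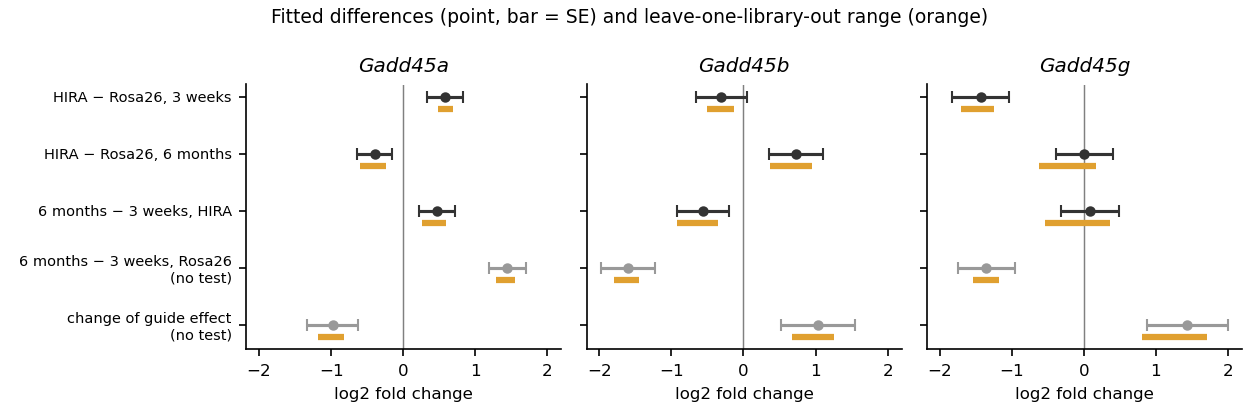
Fitted log2 fold change of each Gadd45 gene (x axis) in each comparison (y axis); points and thin whiskers are the edgeR estimate and its SE, grey marks the untested control time course and change of guide difference, and the orange bar spans the estimates with each library left out in turn. Gadd45g at 3 weeks stays between -1.70 and -1.24, while at 6 months its bar crosses 0.

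The change of the guide difference between time points equals the time difference in HIRA livers minus that in control livers, and so contains the comparison that chose the family. It is given as a description, without a test for any family member. The log2 change was -0.97 ± 0.35 (SE) for Gadd45a, 1.04 ± 0.51 for Gadd45b and 1.44 ± 0.56 for Gadd45g. Without HIRA 6-month replicate 5 the values were -1.18, 1.26 and 1.61, and without replicate 1 the Gadd45b value was 0.68 and the Gadd45g value 0.81. Of all tested genes 0% were called for this change by edgeR, with 1514 genes at an unadjusted p under 0.05, and DESeq2 called 0 genes as well.

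The balance of the family within a liver is independent of the scaling of libraries but depends on the gene length used, which here was the exon union. In Rosa26 livers at 3 weeks the log2 ratio of Gadd45a to Gadd45g per kilobase was -2.60 ± 0.72 (SD, n = 5), and 0 of 5 livers had more Gadd45a. In HIRA livers at 3 weeks it was -0.61 ± 1.05, with more Gadd45a in 1 of 5. At 6 months it was 0.04 ± 0.33 in Rosa26 livers and -0.13 ± 1.28 in HIRA livers, with more Gadd45a in 2 and 3 of 5, and the HIRA value was -0.48 ± 1.15 without replicate 5 (n = 4). On the FPKM deposited by the authors the mean log2 ratio was -1.97, -0.02, 0.66 and 0.43 in the same order of groups, and Gadd45a was above Gadd45g in 0, 3, 5 and 4 of 5 livers. The log2 ratio of Gadd45a to Gadd45b ran from -0.77 ± 0.66 in Rosa26 livers at 3 weeks through 0.08 ± 1.02 in HIRA livers at 3 weeks and 1.17 ± 1.37 in HIRA livers at 6 months to 2.11 ± 0.54 in Rosa26 livers at 6 months, and the HIRA value at 6 months was 0.65 ± 0.81 without replicate 5. Gadd45b stayed under Gadd45g in all 20 livers by counts per kilobase and by FPKM. By counts per kilobase the mean log2 ratio of the groups lay between -2.07 and -0.69, with -1.30 in HIRA livers at 6 months (-1.13 without replicate 5). By FPKM it lay between -1.79 in Rosa26 livers at 6 months and -0.38 in HIRA livers at 3 weeks. These ratios use the libraries that selected Gadd45a and are given without a test.

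**Figure D3:**
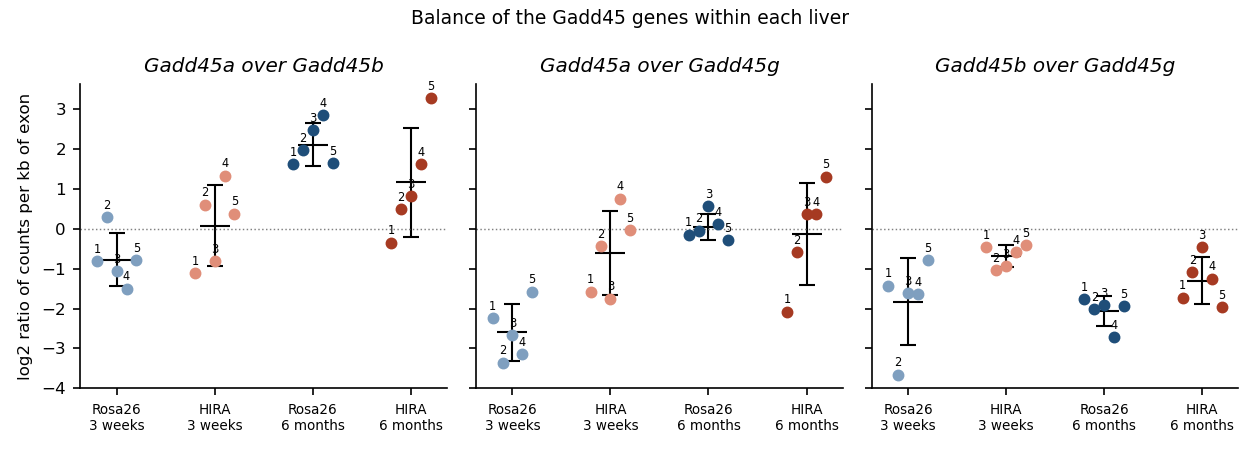
Log2 ratio of counts per kilobase of exon between pairs of Gadd45 genes (y axis) in each liver, by group (x axis); points are libraries with their replicate number, cross bars and whiskers the mean and SD, and the dotted line marks equal levels. Gadd45b lies below Gadd45g in every liver, and Gadd45a lies below Gadd45g in all 5 control livers of 3 weeks.

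Livers of 1 group differed among themselves, so the 3 genes were compared by their deviation from the group mean of log2 CPM over the 20 libraries. For Gadd45b and Gadd45g the correlation of these deviations was positive (Pearson r = 0.536, permutation within groups p = 0.0605, adjusted over 3 pairs 0.0908; Spearman rho = 0.492, permutation p = 0.0544, adjusted 0.0816). Without the 2 libraries farthest from the median of Gadd45b, Rosa26 3-week replicate 2 and HIRA 6-month replicate 5, r was 0.763. For Gadd45a and Gadd45b it was negative (r = -0.461, permutation p = 0.0527, adjusted 0.0908, and rho = -0.484, permutation p = 0.0453, adjusted 0.0816). The 2 libraries farthest from the median of Gadd45a were Rosa26 6-month replicate 3 and HIRA 6-month replicate 5. Without both r was -0.363, and without HIRA 6-month replicate 5 alone it was -0.274. For Gadd45a and Gadd45g r was -0.307 (permutation p = 0.243, adjusted 0.243) and rho -0.248 (permutation p = 0.310, adjusted 0.310). Without Rosa26 6-month replicate 3 and HIRA 6-month replicate 5 r was -0.241. Without HIRA 6-month replicate 5 r was 0.468 for Gadd45b and Gadd45g and -0.203 for Gadd45a and Gadd45g. In this test of deviations from group means, none of the 3 relations passed an adjusted p of 0.05 over all 20 libraries. Leaving out Rosa26 3-week replicate 2, which was low in Gadd45b and high in Gadd45g, gave r = 0.792 for Gadd45b and Gadd45g (permutation adjusted p = 0.00549) and r = -0.561 for Gadd45a and Gadd45b (permutation adjusted p = 0.0447). HIRA 6-month replicate 1 was at the far end of the first relation, highest of its group in both Gadd45b and Gadd45g, and replicate 5 at the other end, lowest in both and highest in Gadd45a.

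**Figure D4:**
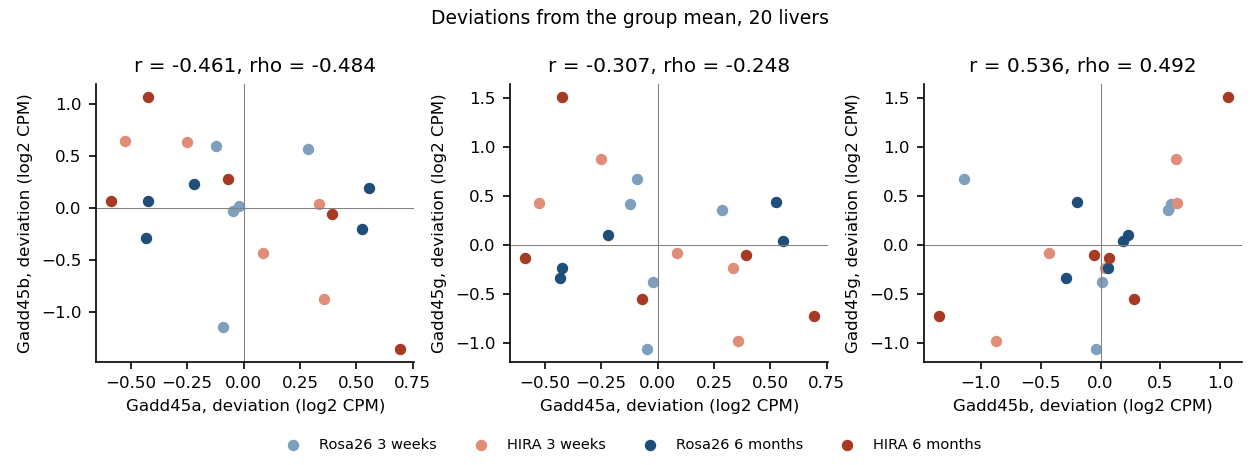
Deviation of each liver from its group mean (log2 CPM) for each pair of Gadd45 genes, with 1 point per library coloured by group and Pearson r and Spearman rho over the 20 libraries above each panel. Gadd45b and Gadd45g deviate mostly in the same direction (r = 0.536), with 1 control liver of 3 weeks far off at the upper left, and r for Gadd45a and Gadd45b is -0.461.

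Other genes of the pathways in which Gadd45 proteins act were followed as lists, with genes counted as called in the fit over all genes. Their counts at an unadjusted p under 0.05 are in the order 3 weeks, 6 months and time in HIRA livers, and stand beside 8.87%, 15.5% and 8.95% of all tested genes. Among 12 binding partners and kinase effectors, 0 were called by edgeR or DESeq2 in either guide comparison or between the time points in HIRA livers (1 at 3 weeks without HIRA 3-week replicate 3), with 2, 2 and 1 at an unadjusted p under 0.05. The p38 kinase Mapk14 differed between guides by -0.12 ± 0.08 at 3 weeks (edgeR adjusted p = 0.747) and by -0.14 ± 0.08 at 6 months (adjusted p = 0.410), and the p38 activator Map2k3 by 0.002 ± 0.10 (adjusted p = 0.997) and -0.22 ± 0.10 (adjusted p = 0.284). Cdkn1a, the p21 gene, differed between guides by -1.25 ± 0.40 at 3 weeks (unadjusted p = 0.00545, edgeR adjusted p = 0.266) and 0.82 ± 0.44 at 6 months (adjusted p = 0.383), and Map2k7, a JNK activator, by 0.26 ± 0.07 at 6 months (edgeR adjusted p = 0.0524), none of them called. Among 8 DNA demethylation partners 0 were called by either tool, with 1 at an unadjusted p under 0.05 in each comparison, and the DNA oxidase Tet3 differed between guides by 0.07 ± 0.11 at 3 weeks and 0.05 ± 0.11 at 6 months, and the DNA repair nuclease Ercc5 by 0.16 ± 0.09 and 0.05 ± 0.09. Among 6 other growth arrest and DNA damage genes edgeR called 0, with 0, 1 and 3 at an unadjusted p under 0.05, and DESeq2 called 1 between the time points in HIRA livers. The most abundant of them, the cytoskeletal gene Gas2, differed between guides by 0.17 ± 0.21 at 3 weeks (edgeR adjusted p = 0.907) and -0.12 ± 0.21 at 6 months (adjusted p = 0.854), and the membrane protein gene Gas1 by -0.08 ± 0.15 and -0.25 ± 0.15. The median log2 difference of these 3 lists lay between -0.06 and 0.08 in the guide comparisons, against -0.01 and 0.03 over all tested genes.

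Of 16 upstream transcription regulators, 0 were called by edgeR or DESeq2 in the same comparisons, with 1, 3 and 4 at an unadjusted p under 0.05. Nr1i3, which encodes CAR, differed between guides by -0.24 ± 0.24 at 3 weeks (edgeR adjusted p = 0.867) and 0.12 ± 0.24 at 6 months (adjusted p = 0.868), and the stress regulator Atf4 by -0.02 ± 0.09 and 0.06 ± 0.09. Of 15 immediate-early genes, quickly induced like the Gadd45 genes, 0 were called by either tool and 0, 2 and 0 had an unadjusted p under 0.05, with a median of -0.07 between guides at 3 weeks and 0.26 at 6 months. Zfp36, an immediate-early gene whose protein shortens the life of cytokine mRNA, differed between guides by -0.21 ± 0.21 at 3 weeks and -0.18 ± 0.21 at 6 months, and the AP-1 subunit Jund by 0.13 ± 0.11 and 0.39 ± 0.11 (edgeR adjusted p = 0.837 and 0.0826). Of 12 fasting genes 0 were called by either tool and 3, 4 and 2 had an unadjusted p under 0.05, with medians of -0.29 and 0.25 between guides. Pck1, which encodes an enzyme of glucose synthesis, differed by -0.51 ± 0.32 and 0.16 ± 0.32.

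Among 16 p53 targets, which are the pathway of Gadd45a, 0 were called between guides by edgeR or DESeq2 (1 at 3 weeks without HIRA 3-week replicate 3), with 4 and 5 at an unadjusted p under 0.05. At 3 weeks Trp53inp1, an autophagy and stress gene, differed by -0.20 ± 0.21 and the cyclin gene Ccng1 by 0.17 ± 0.16. At 6 months Bbc3, which encodes the death protein PUMA, had an adjusted p of 0.0204 in edgeR but a difference of -0.69 ± 0.14, within the fold threshold. Its counts were 539, 491, 634, 666 and 545 in Rosa26 livers and 415, 364, 383, 287 and 339 in HIRA livers, with no overlap, replicate 5 included or not. Between 3 weeks and 6 months in HIRA livers 2 of 16 had a log2 difference above 0. In that comparison edgeR called 1 of 16, as lower, beside 0.0569% of all tested genes. This was Eda2r, a receptor of the TNF family, with a log2 difference of -2.21 ± 0.34 (edgeR adjusted p = 0.00821), from 43, 61, 141, 105 and 67 counts to 12, 15, 31, 19 and 16. The list's median there was -0.42 against 0.03 over all genes, and 9 of 16 had an unadjusted p under 0.05 beside 8.95% of all tested genes, whereas Gadd45a had 0.47 ± 0.25. DESeq2 called 2 of 16, beside 0.458% of the genes it tested. A fit of these 10 libraries alone called 0. With 1 library left out, edgeR called 1 without HIRA 6-month replicate 5. It called 2 without Rosa26 3-week replicate 2, Rosa26 6-month replicate 3 or HIRA 6-month replicate 3. The cell-cycle inhibitor Cdkn1a, a binding partner of Gadd45 proteins, had a difference of -1.54 ± 0.42 that was not called (adjusted p = 0.200). In the control time course, given without a test, the list had a median of -0.52, with Cdkn1a at -3.61 ± 0.45, Eda2r at -1.86 ± 0.35 and Phlda3, an inhibitor of AKT, at -1.77 ± 0.34.

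Some clock genes differed between guides at 3 weeks, the comparison with the lowest unadjusted p for Gadd45g. Of 9 clock genes that peak late in the day, 5 were called higher in HIRA livers than in Rosa26 livers at 3 weeks, beside 0.114% of all tested genes, and Dbp, a clock output factor, rose by 4.55 ± 0.79 (edgeR adjusted p = 0.0251), Ciart, a repressor of the clock, by 3.62 ± 0.71 (adjusted p = 0.0379) and Per3, a period gene, by 2.56 ± 0.53 (adjusted p = 0.0455). Dbp counts were 30, 32, 52, 39 and 76 in Rosa26 livers and 1032, 826, 187, 2372 and 1158 in HIRA livers, with no overlap. The count of 5 was 0 without any 1 of Rosa26 3-week replicates 1, 2 or 4 or HIRA 3-week replicates 4 or 5. It was 1 without Rosa26 3-week replicate 3 or HIRA 3-week replicate 1, 2 without HIRA 3-week replicate 2 or Rosa26 6-month replicate 4, 3 without Rosa26 6-month replicate 1 or HIRA 6-month replicate 2, and 1 in limma-voom. Of 5 clock genes of the opposite phase edgeR called 0 and DESeq2 1, with 3 at an unadjusted p under 0.05 and a median of -1.03. Nfil3, a repressor of Dbp targets, differed by -1.12 ± 0.28 (edgeR adjusted p = 0.117). An index of the first clock list minus the other (log2 CPM) ran from -2.61 to -1.61 in the Rosa26 livers at 3 weeks and from -1.07 to 2.71 in the HIRA livers. At 6 months edgeR called 0 of 9 between guides and DESeq2 1, with 1 at an unadjusted p under 0.05, and the nuclear receptor Nr1d1 differed by -0.03 ± 0.33 and the output factor Tef by 0.09 ± 0.28. HIRA 6-month replicate 1, the liver high in Gadd45g, had an index of -1.65, and the other 4 livers of its group lay between 0.305 and 2.65. HIRA 3-week replicate 4, with the lowest Gadd45g count of its group, had the highest index, 2.71. In Rosa26 livers at 3 weeks replicate 5 had the highest index, -1.61, and the lowest Gadd45g count, 182, while replicate 1 had the lowest index, -2.61, and the second lowest count, 270. In Rosa26 livers at 6 months replicate 2 had both the lowest index, -0.333, and the lowest Gadd45g count, 126, and replicate 3 had the highest index, 2.00, with 178 counts. The part of the clock values in the Gadd45 differences was not tested.

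**Figure D5:**
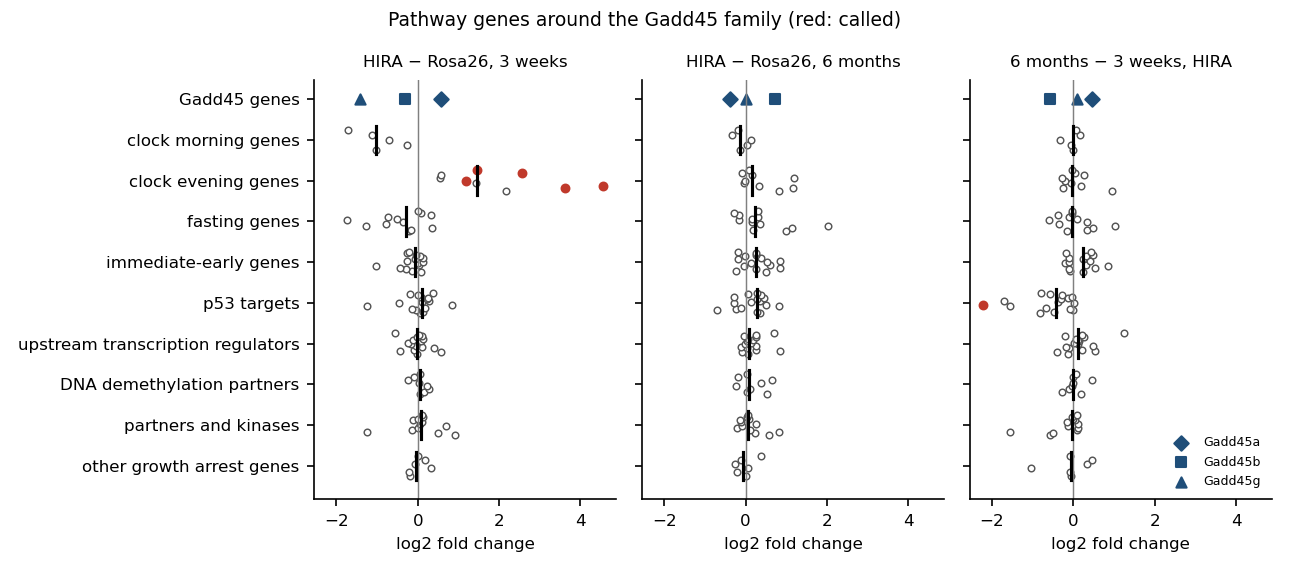
Log2 fold change (x axis) of the genes of each list (y axis) in the 2 guide comparisons and in the time comparison within HIRA livers; circles are genes, red filled circles genes called by edgeR, black bars list medians, and blue symbols the 3 Gadd45 genes. Called genes are 5 clock genes at 3 weeks and Eda2r between the time points in HIRA livers.

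Markers of other liver cells were set beside these values. No marker of 8 cell types was called in any comparison by edgeR. Summed B cell markers (4 genes) were 7.07 to 9.59 CPM in Rosa26 livers and 11.6 to 18.2 CPM in HIRA livers at 3 weeks. Of these 4 genes 3 had an unadjusted edgeR p under 0.05, beside 8.87% of all tested genes. Summed neutrophil markers (5 genes) were 2.63 to 45.5 CPM in Rosa26 livers and 2.26 to 4.89 CPM in HIRA livers. At an unadjusted edgeR p under 0.05, 5 of 5 were lower in HIRA livers, beside 8.87% of all tested genes at that threshold. Ly6g and Mpo were at 0 in some of the 20 libraries. The other controls, at 2.63 to 7.76 CPM, overlapped the HIRA livers, and the highest sum was in Rosa26 replicate 3. That library had the highest Gadd45a level of its group, and its Gadd45g level was 22.8 CPM against 23.7 and 28.3 CPM in replicates 4 and 2, whose neutrophil markers were at 4.16 and 7.76 CPM. At 6 months the neutrophil sums were 2.57 to 23.9 CPM in Rosa26 livers and 1.45 to 7.02 CPM in HIRA livers. The highest was Rosa26 replicate 3, which also had the highest Gadd45a level of its group, 17.0 CPM, and the highest of the HIRA group was replicate 1, the liver high in Gadd45g. B cell sums at 6 months were 7.64 to 21.8 CPM in Rosa26 livers and 6.44 to 27.2 CPM in HIRA livers. Without HIRA replicate 5, which was lowest in both, the HIRA ranges were 3.11 to 7.02 CPM for neutrophils and 12.2 to 27.2 CPM for B cells. Kupffer cell markers (7 genes) were 278 to 2190 CPM in Rosa26 livers and 175 to 1290 CPM in HIRA livers at 6 months. The part of these cells in the Gadd45 values was not tested.

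The genes most like each family member over the 20 libraries were named by Pearson r of log2 CPM among 12903 genes with a mean of at least 1 CPM, as a description in which the libraries share the same 4 groups. For Gadd45a they were Zfp608 (r = 0.867), Eepd1 (0.849), Zyx (0.834), Atf7ip (0.834) and Lima1 (0.830). For Gadd45b they were S1pr3 (r = 0.797), Angptl6 (0.789), Lrp5 (0.787), Postn (0.785) and Btbd7 (0.785). For Gadd45g they were Ogfr (r = 0.817), B3gat3 (0.808), Clpx (0.802) and Gfod2 (0.798). Without HIRA 6-month replicate 5 r lay between 0.814 and 0.897 for the genes named for Gadd45a, between 0.724 and 0.749 for those of Gadd45b and between 0.781 and 0.821 for those of Gadd45g. The genes named for each member were not named for another.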

How the data were processed

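Liver polyA RNA of 20 mice was sequenced with a directional kit. The authors deposited raw counts and FPKM values per gene, made after trimming and STAR alignment to mm10. The counting program is HOMER in the study's methods, while the submitters' processing notes name HTSeq and Cufflinks. Counts were analysed in R 4.3.3 with edgeR 4.0.16 (quasi-likelihood test, TMM, genes with at least 10 counts in all, 1 fit with a mean per group) and Benjamini-Hochberg adjustment over 22867 genes. Calls needed an adjusted p under 0.05 and an absolute log2 fold change above 1. At these thresholds the study reported more genes between guides, at both time points, than edgeR or DESeq2 called here. Of the 55421 genes, 22854 had no count and 9700 had 1 to 9. CPM and log2 CPM (prior count 2) of the family use TMM-scaled library totals, and marker sums the unscaled totals. Deviation correlations were tested by 100000 two-sided permutations within groups. On simulated counts of 22867 genes for the 6-month guide comparison, 193 of 200 genes changed by a log2 fold of 2 were called, with 6 false calls. The changed genes had a mean of at least 1 CPM. The fitted guide differences of the members were smaller than this fold, so the recovery does not apply to them. Replicates are separate mice by their labels. The lowest chi-square per gene within a group was 15.1 over 40 pairs, so no library was a copy of another in its group.

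Alternatives were DESeq2 1.42.0, limma-voom (limma 3.58.1), RLE and upper quartile scaling, other filters, the libraries of 1 comparison alone, a replicate block, each library left out, a prior count of 0.5 for the correlations, and limma on the deposited FPKM (log2 with a pseudocount of 1 or 0.1, 17027 genes with a value in every library). The planned test of the change of guide difference is not reported for the members, since it contains the comparison that chose them. Promoter letters came from RefSeq (GRCm38.p6), where 3 of 3 genes matched. The family members and gene lists were chosen with earlier results of these data known. Named genes are the 3 members, Hira, for each list and comparison up to 3 genes with an adjusted p under 0.05 or else the 2 with the highest mean CPM, and the 5 genes most correlated with each member. Of these named genes, some are not reported here. Cdkn1a outside the control time course and Map2k7 were named after their values were seen.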

Additional observations from a re-analysis of the deposited data

Results flagged for a closer look

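Gadd45a in Rosa26 3-week replicate 3 stood at a log2 CPM of 2.46, apart from the other 4 livers of its group, with a gap to the nearest of 0.751 of the group's range. Gadd45g in HIRA 6-month replicate 1 stood at a log2 CPM of 4.19, with a gap of 0.721 of the range above the other 4. Each passed Dixon's 95% limit for a group of 5. Chance gives such a result in about 1 in 20 groups, or 0.6 of the 12 groups tested. The 2 libraries differ, and the first had the highest neutrophil marker sum of its group, 45.5 CPM, and the second the lowest clock index of its group, -1.65.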

How the results depend on the processing

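Over 12 tested results and 342 alternatives, 324 kept direction and side of the threshold, 4 passed the threshold that the reported value missed, and 14 changed sign. For 6 results given without a test, 177 of 177 alternatives kept the direction. DESeq2 gave Gadd45g at 3 weeks as -1.43 (adjusted p = 0.0259). The Gadd45g guide difference at 6 months, 0.01, was -0.0165 in DESeq2, -0.19 in limma-voom, -0.0094 with RLE and -0.0047 with upper quartile scaling, and -0.13 and -0.18 on FPKM with pseudocounts of 1 and 0.1, and ran from -0.62 (without HIRA 6-month replicate 1) to 0.18 (without replicate 5) with 1 library left out. It was -0.05 without Rosa26 6-month replicate 1 and -0.07 without replicate 2. The Gadd45g time difference in HIRA livers, 0.09, was -0.0298 and -0.0453 on FPKM, and ran from -0.54 (without HIRA 6-month replicate 1) to 0.36, with -0.10 without HIRA 3-week replicate 4. With 1 library left out, r of Gadd45a and Gadd45b ran from -0.561 to -0.274, and r of Gadd45b and Gadd45g from 0.369 to 0.792. For Gadd45a and Gadd45g r ran from -0.4 to -0.178. The cause of these shifts was not tested. Counts called from the gene lists were recomputed as alternatives chosen after the data were seen: at 3 weeks the 5 late clock genes ran from 0 to 6, the 0 of the opposite phase from 0 to 2, and the 0 binding partners and the 0 p53 targets each from 0 to 1, and the 1 p53 target over time in HIRA livers from 0 to 2. Without HIRA 6-month replicate 5, 102 genes in all were called between guides at 6 months against 76, and 0 genes of the lists there, as with it.

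The replicate numbers are not stated to pair mice. Deviations of same-numbered libraries correlated between -0.309 and 0.335 over 30 pairs, 14 of them over 0.1 (median 0.0793), against 25 of 120 for different numbers (median -0.0355), and 5 of 20 libraries correlated best with their own number. With a replicate block the guide differences for Gadd45a, Gadd45b and Gadd45g were 0.55, -0.34 and -1.45 at 3 weeks and -0.40, 0.66 and -0.14 at 6 months, the calls in all genes were 27 and 72 against 26 and 76, and r of Gadd45a and Gadd45b was -0.672 (permutation adjusted p = 0.011). Between time points in HIRA livers the block gave 26 calls in all genes against 13, and in Rosa26 livers 61 against 37.

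The members had 26 to 567 counts per library, and 5 livers a group limit what differences can be detected.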
